A study of Mus musculus with 8 samples.

Results

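Small leucine-rich proteoglycans are secreted matrix proteins built from leucine-rich repeats, most of which carry sugar chains, and the 10 genes described here encode lumican (Lum), decorin (Dcn), biglycan (Bgn), fibromodulin (Fmod), keratocan (Kera), osteomodulin (Omd), osteoglycin (Ogn), asporin (Aspn), PRELP (Prelp) and podocan (Podn). They were chosen by name out of 19752 genes with a value, on the measured log2 levels of each array and the difference between the treatments. The difference between the treatments is therefore given for them as a description, with its standard error (SE) but with no test.

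The samples were whole tibialis anterior muscles of male mice, 99 weeks old by the sample labels and 22 months old by the design text, all injured with a metal probe chilled in liquid nitrogen for 8 s and taken at day 8 after that injury. The 4 rIL-33 arrays came from mice given 2 µg of recombinant interleukin 33, an alarmin cytokine, by injection into the peritoneum on the day before and again on the day after injury, and the 4 PBS arrays from mice whose treatment is labelled PBS. In each treatment, replicates 3 and 4 carry the genetic background label WT and replicates 1 and 2 the label C57BL/6, while the design text calls all the animals C57BL/6; the sources used here do not say what separates the labels. Whether any mouse gave more than 1 array is also unstated, so every error below measures the spread between these arrays, which may be partly technical.

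These proteins bind collagen and control how thick and how evenly spaced its fibrils become. Several of them also hold growth factors of the transforming growth factor beta family in the matrix, and in skeletal muscle they are made mainly by fibroblasts and fibro-adipogenic progenitors, which expand after injury. Lumican, keratocan, fibromodulin, PRELP and osteomodulin form class II of the family, several of whose members carry keratan sulfate; decorin, biglycan and asporin form class I; osteoglycin belongs to class III and podocan to class V.

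Levels are log2 of the deposited microarray intensity of 1 probe set per gene, and levels of different genes are not set against each other because probe sets differ in brightness. Each of the 10 genes had 1 probe set naming it alone. A gene whose mean over the 8 arrays lay under 6.65 was treated as dim. Of the 10 genes 9 lay above that cut-off in both treatments, whereas Omd lay under it in both. The median intensity of the arrays lay between 222.6 and 232.2, and the muscle fibre genes Acta1, Ckm, Mb, Myh4, Tnnt3 and Atp2a1, which mark the labelled tissue, were all above the cut-off.

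The promoters of 4 of the genes are shown. Kera, Ogn and Aspn had a lower mean with rIL-33, with overlapping groups in Aspn, and Fmod had nearly the same mean in both treatments. Each line gives the 150 bases before the RefSeq start of the gene in GRCm38.p6, on the plus strand, with capitals marking the motifs that were found.
Kera, chr10:97607055-97607204: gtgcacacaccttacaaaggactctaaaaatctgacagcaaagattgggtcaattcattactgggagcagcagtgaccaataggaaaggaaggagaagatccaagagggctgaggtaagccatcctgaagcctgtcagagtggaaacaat
Aspn, chr13:49544293-49544442: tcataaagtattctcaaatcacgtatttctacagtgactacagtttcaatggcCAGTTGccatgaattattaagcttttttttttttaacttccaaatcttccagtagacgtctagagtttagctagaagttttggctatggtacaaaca
Ogn, chr13:49607865-49608014: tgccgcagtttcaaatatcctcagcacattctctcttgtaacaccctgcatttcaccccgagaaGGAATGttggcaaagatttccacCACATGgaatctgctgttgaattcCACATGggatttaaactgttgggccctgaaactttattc
Fmod, chr1:134037104-134037253: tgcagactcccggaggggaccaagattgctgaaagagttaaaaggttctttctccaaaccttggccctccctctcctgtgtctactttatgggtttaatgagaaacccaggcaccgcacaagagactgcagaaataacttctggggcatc
A RefSeq promoter was at hand for 8 of the 10 genes, with a pair of entries for Podn, and 5 motifs were searched on both strands: the TATA box (TATAAA), the AP-1 site (TGANTCA), the GC box (GGGCGG), the E-box (CANNTG) and the TEAD site (CATTCC). The Ogn promoter held E-boxes whose first bases lay 63 and 39 bases before the start, and on the opposite strand a TEAD site 86 bases before it. The Aspn promoter held an E-box 97 bases before the start, and the windows of Kera and Fmod held none of the 5 motifs; none of these matches overlapped another. E-boxes stood in 5 of the 9 entries, against 47.7% of 32851 promoter windows of this length, and GC boxes stood in 2 entries, those of Bgn and of 1 Podn start, against 28.6%. A TEAD site is present in 7.59% of all windows, a TATA box in 7.57% and an AP-1 site in 4.24%, and the last 2 motifs were in none of the 9 entries. These matches describe letters in a window, and no binding was measured.

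All 9 genes above the cut-off had a lower mean with rIL-33 than with PBS, Fmod with a difference of only -0.01 (SE 0.07). The dim Omd is not counted. In 5 of the 9 (Lum, Dcn, Kera, Ogn and Podn) every rIL-33 array lay below every PBS array. Among all 14814 genes above the dim cut-off, 316 showed such a separation in this direction, 2.13%, and 52% had a lower mean with rIL-33; nothing is read from these shares, since the genes were chosen with this contrast known. The median log2 difference, rIL-33 minus PBS, was -0.34 over the 9 genes above the cut-off, beside -0.01 over all 14814. In limma with Benjamini-Hochberg adjustment 0.00675% of the genes tested passed the threshold of 0.05, 1 gene, the macrophage product gene Retnla, and none of the proteoglycan genes. Retnla was higher with rIL-33, by 2.74 (SE 0.24), and no gene passed in the lower direction. At an unadjusted p under 0.05 the same fit had 1427 genes, 9.63%, of which 776 (5.24% of those tested) were lower with rIL-33 and 651 (4.39%) higher. RNA was taken from whole muscle, so fewer cells of a type and less RNA per cell cannot be told apart in any of these levels.

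**Figure D1:**
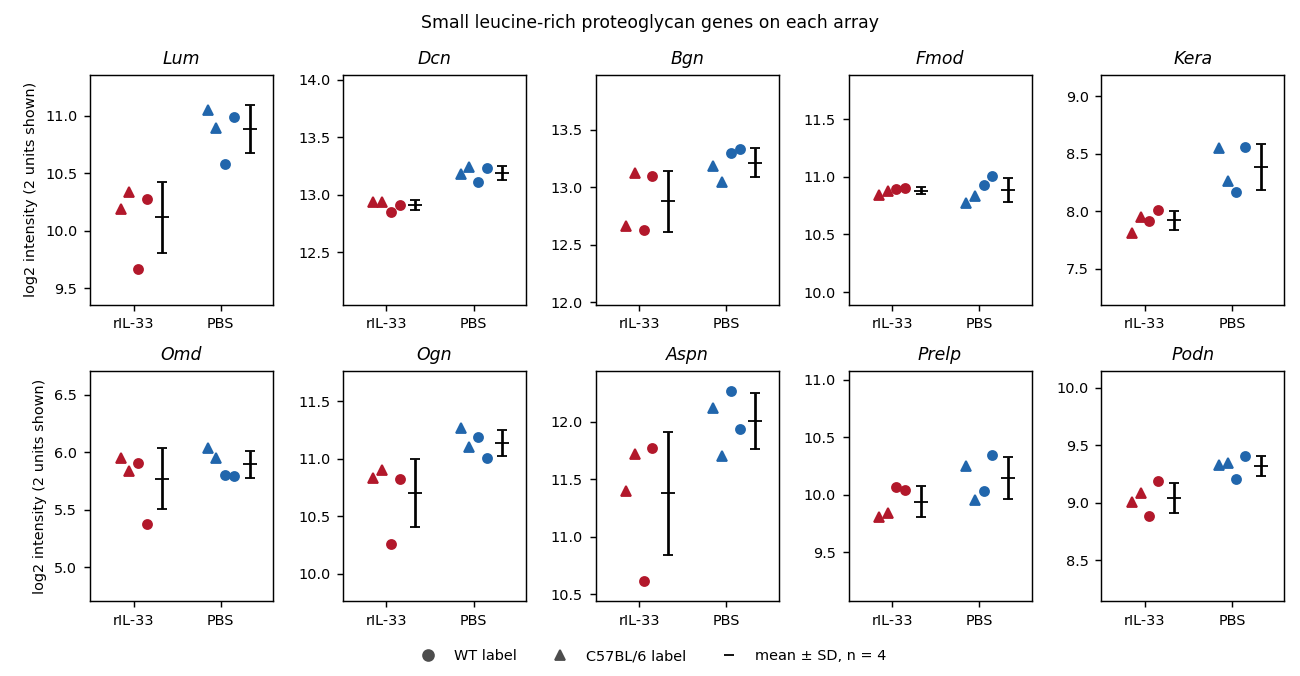
Log2 intensity of the 10 proteoglycan genes on each array, rIL-33 (red, left) and PBS (blue, right), with circles for the WT label, triangles for the C57BL/6 label and bars for the mean ± SD of 4 arrays; every panel spans the same range. The groups are apart in Lum, Dcn, Kera, Ogn and Podn and overlap in the others, and rIL-33 replicate 3 is the lowest point of Lum, Ogn and Aspn.

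Lumican, a class II member that binds collagen I and limits fibril thickness, showed the largest difference of the 10. Its log2 intensity was 10.19, 10.34, 9.66 and 10.27 on rIL-33 replicates 1 to 4, against 11.05, 10.90, 10.58 and 10.99 on PBS replicates 1 to 4. The highest rIL-33 array lay 0.25 below the lowest PBS array. The means were 10.12 ± 0.31 with rIL-33 and 10.88 ± 0.21 with PBS (SD, n = 4 each), a log2 difference of -0.76 (SE 0.15), which is an intensity 41.1% lower. In intensity units, Lum ranged from 810.6 to 1292.7 on the rIL-33 arrays and from 1532.2 to 2121.5 on the PBS arrays.

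Keratocan, the class II member encoded next to lumican and best known from cornea, was also separated between the groups. Kera stood at 7.82, 7.95, 7.92 and 8.01 on the rIL-33 arrays, against 8.55, 8.26, 8.17 and 8.56 on the PBS arrays. The rIL-33 arrays were tightly grouped (7.92 ± 0.08), while the PBS arrays fell into a higher pair, replicates 1 and 4, and a lower pair (8.39 ± 0.20; SD, n = 4 each). The log2 difference was -0.46 (SE 0.10), an intensity 27.5% lower.

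Fibromodulin, a class II member abundant in tendon that guides collagen cross-linking, gave nearly the same mean in both treatments. Its levels were 10.84, 10.87, 10.90 and 10.91 with rIL-33, against 10.77, 10.83, 10.93 and 11.01 with PBS. All rIL-33 arrays lay inside the range of the PBS arrays, and the difference was -0.01 (SE 0.07), whose sign turned when the C57BL/6-labelled arrays were taken alone (0.05) and without PBS replicate 4 (0.03), PBS replicate 3 (0.01) or rIL-33 replicate 1 (0.01). PRELP, which anchors basement membranes to collagen through its heparan sulfate binding, stood at 9.81, 9.84, 10.07 and 10.04 with rIL-33 and at 10.25, 9.96, 10.03 and 10.34 with PBS. Its groups overlapped through both WT-labelled rIL-33 arrays, and its difference was -0.21 (SE 0.10). Omd, the bone-associated member of class II, ranged from 5.38 to 5.96 with rIL-33 and from 5.79 to 6.04 with PBS, all under the dim cut-off, so no difference can be read from it.

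Decorin, the class I member that binds collagen, transforming growth factor beta and myostatin, varied least among the separated genes. Dcn stood at 12.94, 12.94, 12.85 and 12.91 with rIL-33, against 13.18, 13.24, 13.11 and 13.23 with PBS. The SD was 0.04 within the rIL-33 arrays and 0.06 within the PBS arrays, and the gap between the groups was 0.17. The difference was -0.28 (SE 0.07), an intensity 17.7% lower.

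Biglycan, the class I relative of decorin that also binds sarcoglycans of the muscle membrane and Toll-like receptors, had overlapping groups. Bgn stood at 12.66, 13.12, 12.63 and 13.10 with rIL-33, against 13.18, 13.05, 13.30 and 13.33 with PBS. The rIL-33 arrays formed a low pair, replicates 1 and 3, and a pair at the level of the PBS arrays, with 1 array of each background label in each pair. The difference was -0.34 (SE 0.13). Asporin, a class I member with a run of aspartates that binds transforming growth factor beta, showed the widest spread of all. Aspn stood at 11.39, 11.72, 10.61 and 11.77 with rIL-33, against 12.12, 11.70, 12.27 and 11.93 with PBS. The SD was 0.54 among the rIL-33 arrays and 0.25 among the PBS arrays. The difference of -0.63 (SE 0.23) rested in good part on rIL-33 replicate 3, without which it was -0.38. In both Bgn and Aspn the overlap came from PBS replicate 2 alone, and without that array the separated genes numbered 7 instead of 5.

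Osteoglycin, the class III member also called mimecan, was separated between the groups. Ogn stood at 10.83, 10.91, 10.26 and 10.82 with rIL-33, against 11.27, 11.10, 11.19 and 11.01 with PBS. Apart from replicate 3, the rIL-33 arrays lay within 0.1 of each other. The difference was -0.44 (SE 0.14), and -0.29 without rIL-33 replicate 3. Podocan, a class V member known from studies of smooth muscle cells and of the kidney, stood at 9.00, 9.09, 8.89 and 9.19 with rIL-33 and at 9.33, 9.35, 9.20 and 9.41 with PBS. Its groups were separated by only 0.01, and its difference was -0.28 (SE 0.08).

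The 9 genes did not vary across arrays in 1 way. Within the rIL-33 group, replicate 3 was the lowest array in 6 of them (Lum, Dcn, Bgn, Ogn, Aspn and Podn) and replicate 1 in the other 3 (Fmod, Kera and Prelp). Within the PBS group, replicate 4 was the highest array in 5 and replicate 3 the lowest in 4. The profiles of Dcn and Podn were the most alike: after each gene was centred on its mean over the 8 arrays, they lay 0.07 log2 units apart (root mean square), whereas Fmod and Aspn lay 0.48 apart. Leaving out rIL-33 replicate 3 left the count of separated genes at 5.

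Among all other genes above the cut-off, dermatopontin (Dpt), a collagen-binding protein of fibroblasts, had the profile most like that of Lum, at a distance of 0.09 over the 8 arrays. Ms4a4a, a membrane protein gene known from macrophages, followed at 0.14. Next were Angptl1, a secreted angiopoietin-like protein, at 0.15, the lysophosphatidic acid receptor gene Lpar4 at 0.16 and the ephrin receptor gene Epha3 at 0.17. Dpt stood at 10.94, 11.17, 10.49 and 11.14 with rIL-33, against 11.76, 11.61, 11.28 and 11.54 with PBS, and so shared with Lum the low rIL-33 replicate 3 and the low PBS replicate 3. Nearest to the mean profile of the 9 genes were Gxylt2, a xylosyltransferase gene, at 0.03, the lymphocyte receptor gene Ly9, the endothelial sialomucin gene Emcn and the collagen VI genes Col6a1 and Col6a2, the last 4 at 0.04 to 0.05. All these distances include the treatment difference that served to choose the proteoglycan genes, and they are a description.

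**Figure D2:**
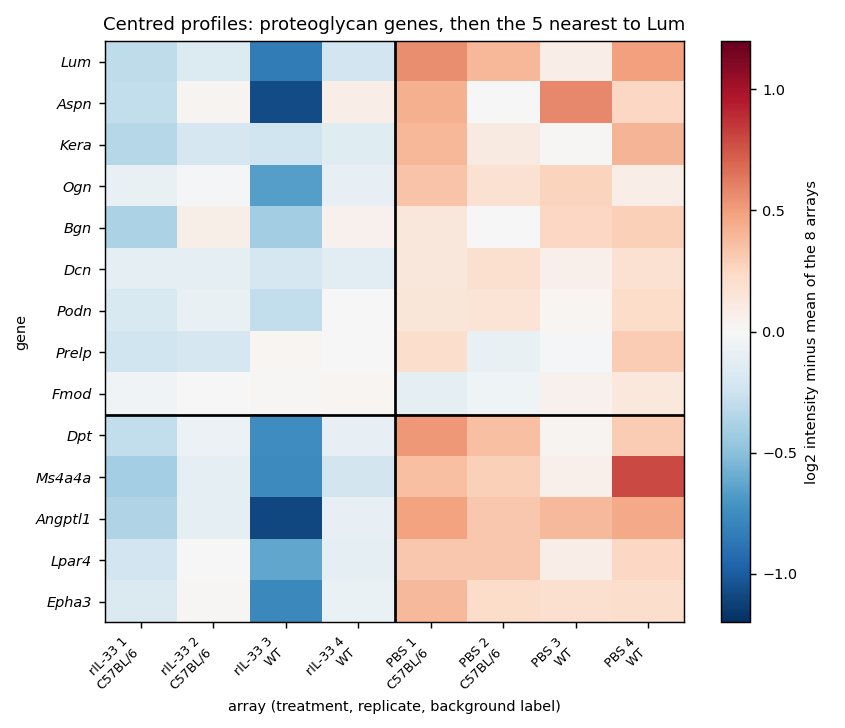
Log2 intensity of each gene minus its mean over the 8 arrays (colour, red above and blue below), with the rIL-33 arrays left of the line and the PBS arrays right; the upper block holds the 9 proteoglycan genes above the dim cut-off and the lower block the 5 genes nearest to Lum. On the left, rIL-33 replicate 3 is the darkest blue in Lum, Aspn, Ogn and the 5 nearest genes; Fmod is nearly white on all 8 arrays.

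Several of the genes lie side by side in the mouse genome, by the order of protein-coding genes in RefSeq GRCm38.p6. Dcn, Lum, Kera and Epyc follow each other, as do Ecm2, Aspn, Omd and Ogn, and Optc, Prelp and Fmod. Along the first run the log2 differences were -0.28 for Dcn, -0.76 for Lum and -0.46 for Kera, while Epyc was dim (5.55 in both treatments). Along the second they were -0.20 for Ecm2, -0.63 for Aspn and -0.44 for Ogn, with the dim Omd between them. In the third run, Optc (-0.06), Prelp (-0.21) and Fmod (-0.01) were closer to 0 than any gene of the first run above the cut-off. Neighbours in a run therefore did not share 1 value.

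The background label gives another contrast. The choice of the genes did not name it, but it draws on the same levels of each array. Its tests are therefore given as a description. None of the 9 genes differed between the WT-labelled and the C57BL/6-labelled arrays in limma with treatment in the model (adjusted p between 0.234 and 0.913; 0 of 9 at an unadjusted p under 0.05, against 32.9% of all genes), whereas 1392 of 14814 genes did, 9.4%. Of those calls, 919 were below 0 in WT minus C57BL/6 (6.2% of genes) and 473 above it (3.19%), so that 66% were below; after a second quantile normalization 375 genes were called, 77.3% of them below. The number of label calls rested on single arrays: it was 10 without rIL-33 replicate 1, 2509 without rIL-33 replicate 2, 543 without rIL-33 replicate 3, 884 without rIL-33 replicate 4, and 52, 111, 21 and 12 without PBS replicates 1, 2, 3 and 4. The largest differences among the proteoglycan genes were those of Lum, WT minus C57BL/6, at -0.24 (95% interval -0.54 to 0.06), and Ogn at -0.21 (-0.47 to 0.06). Prelp was at 0.16 (-0.04 to 0.36) and Fmod at 0.10 (-0.03 to 0.24). For Aspn the interval, -0.61 to 0.43, was the widest of the 9. Fmod was the 1 proteoglycan gene with its label groups apart: its 4 WT-labelled arrays lay between 10.90 and 11.01 and its 4 C57BL/6-labelled arrays between 10.77 and 10.87, a separation that 20.2% of all genes showed in 1 direction or the other.

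The treatment difference, rIL-33 minus PBS, was below 0 within both labels in every proteoglycan gene above the cut-off except Fmod. Over the 9 genes above the cut-off its median was -0.40 within the WT-labelled arrays and -0.29 within the C57BL/6-labelled ones. For Lum it was -0.82 within WT and -0.71 within C57BL/6, and for Dcn -0.29 within WT and -0.27 within C57BL/6. For Aspn it was -0.91 within WT and -0.35 within C57BL/6, for Bgn -0.45 within WT and -0.22 within C57BL/6, and for Ogn -0.56 within WT and -0.32 within C57BL/6. In Kera (-0.40 within WT, -0.52 within C57BL/6), Prelp (-0.13 within WT, -0.28 within C57BL/6) and Podn (-0.27 within WT, -0.29 within C57BL/6) the order was the other way round. A test of the difference between the labels, the interaction term in limma, passed for none of the 9 genes (adjusted p = 0.999 each; 0 at an unadjusted p under 0.05) and for 0 of all 14814 genes, 0%, of which 473, or 3.19%, had an unadjusted p under 0.05. For Aspn the interaction was -0.56 with a 95% interval of -1.59 to 0.48.

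**Figure D3:**
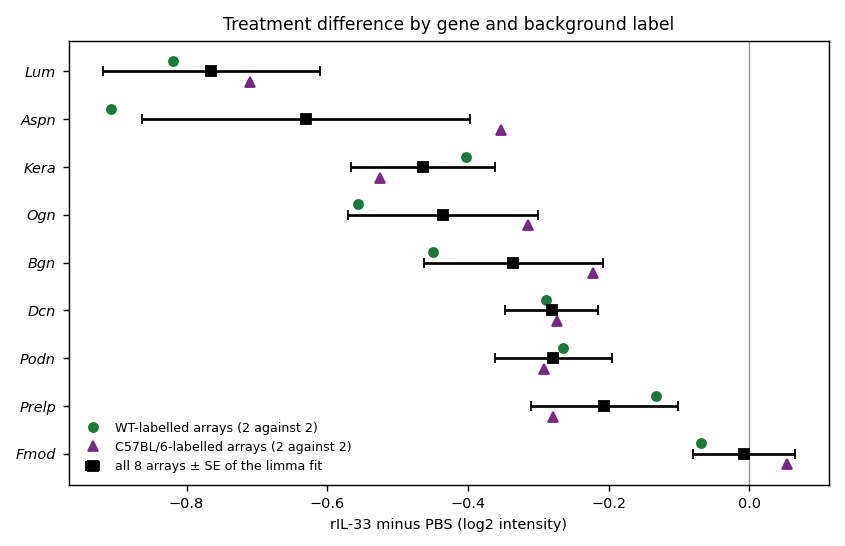
Treatment difference (rIL-33 minus PBS, log2 intensity) of the 9 proteoglycan genes above the dim cut-off: squares with bars are all 8 arrays ± SE of the limma fit, circles the WT-labelled and triangles the C57BL/6-labelled arrays alone. Lum is farthest from 0 at -0.76, Fmod lies at -0.01 with its labels on either side of 0, and the labels are farthest apart in Aspn (-0.91 within WT, -0.35 within C57BL/6).

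Of 8 other genes of the family, 5 lay above the cut-off (Chad, Chadl, Ecm2, Optc and Podnl1). None passed the limma threshold between the treatments, in either direction, and none had an unadjusted p under 0.05. Their median difference was -0.06. Ecm2, a matrix protein gene, stood at 9.12 ± 0.30 with rIL-33 and 9.32 ± 0.28 with PBS, and Podnl1, the podocan-like gene, at 7.18 ± 0.12 with rIL-33 and 7.36 ± 0.20 with PBS (SD, n = 4 each; limma adjusted p = 0.725 and 0.604).

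Collagen partners were lower with rIL-33 in the mean in all 10 genes of the list, with a median of -0.36. None passed the limma threshold (adjusted p between 0.489 and 0.526). Of the 10, 9 had an unadjusted p under 0.05, and 4 were separated between the groups: Col3a1, Col6a1, Col6a2 and Col14a1. Among all genes tested, 5.24% were lower and 4.39% higher at that level, 2.13% were separated in this direction and 52% had a lower mean. This list and those below were chosen with earlier results of these data known, so nothing is read from their counts. Col12a1, a fibril-associated collagen, was at 9.71 ± 0.58 with rIL-33 and 10.44 ± 0.39 with PBS, a difference of -0.73 (SE 0.27). Col14a1, another fibril-associated collagen, was at 10.09 ± 0.17 with rIL-33 and 10.55 ± 0.16 with PBS, a difference of -0.46 (SE 0.11).

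Enzymes that build the sugar chains had medians nearer to 0. Of 18 enzymes of the linkage region and of chondroitin and dermatan sulfate chains, 14 had a lower mean with rIL-33 and 4 a higher one, with a median of -0.12. None passed the limma threshold in either direction, and 4 were lower at an unadjusted p under 0.05. Chpf2 and Chst12 were separated between the groups, lower with rIL-33, as were 2.13% of all genes. Csgalnact1, which starts chondroitin chains, differed by -0.33 (SE 0.14) and Chsy1, which extends them, by -0.26 (SE 0.11). Of 7 keratan sulfate enzymes 6 had a lower mean, with a median of -0.10, and 1 had an unadjusted p under 0.05; the sulfotransferase gene Chst2 differed by -0.39 (SE 0.14) and the galactosyltransferase gene B4galt1 by -0.23 (SE 0.12), with none past the limma threshold.

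Genes that process collagen or cleave the proteoglycans lay near the proteoglycan genes in size. Of 9 procollagen processing and cross-linking genes 7 had a value, and 6 of these had a lower mean (median -0.33), among them Pcolce, the enhancer of procollagen cleavage, at -0.48 (SE 0.14), and lysyl oxidase (Lox) at -0.46 (SE 0.25). All 7 proteases had a lower mean (median -0.29), with the gelatinase gene Mmp2 at -0.53 (SE 0.12) and the stromelysin gene Mmp3 at -0.46 (SE 0.20). In neither list did a gene pass the limma threshold, while 2 of the first, Lox not among them, and 3 of the second had an unadjusted p under 0.05. Pcolce and Mmp2 were the only separated genes of their lists, beside 2.13% of all genes separated in this direction.

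Among 17 growth factors and receptors that bind these proteoglycans, 12 had a lower and 5 a higher mean with rIL-33 (median -0.16), none past the limma threshold and 4 lower at an unadjusted p under 0.05. The largest differences of the list were not among those 4: the connective tissue growth factor gene Ccn2 differed by -0.38 (SE 0.24) and its relative Ccn4 by -0.38 (SE 0.22). Only the Toll-like receptor gene Tlr2 was separated between the groups, lower with rIL-33, as were 2.13% of all genes. The muscle membrane partners of biglycan went the other way: all 5 genes with a value, of 7 listed, had a higher mean with rIL-33, with a median of 0.13. Dystrophin (Dmd) stood at 10.82 ± 0.13 with rIL-33 and 10.47 ± 0.12 with PBS, every rIL-33 array above every PBS array (2.44% of all genes were separated this way), a difference of 0.34 (SE 0.09), and the neuronal nitric oxide synthase gene Nos1 differed by 0.30 (SE 0.14). Neither passed the limma threshold (adjusted p = 0.489 and 0.524), and Dmd was the 1 gene of this list at an unadjusted p under 0.05.

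**Figure D4:**
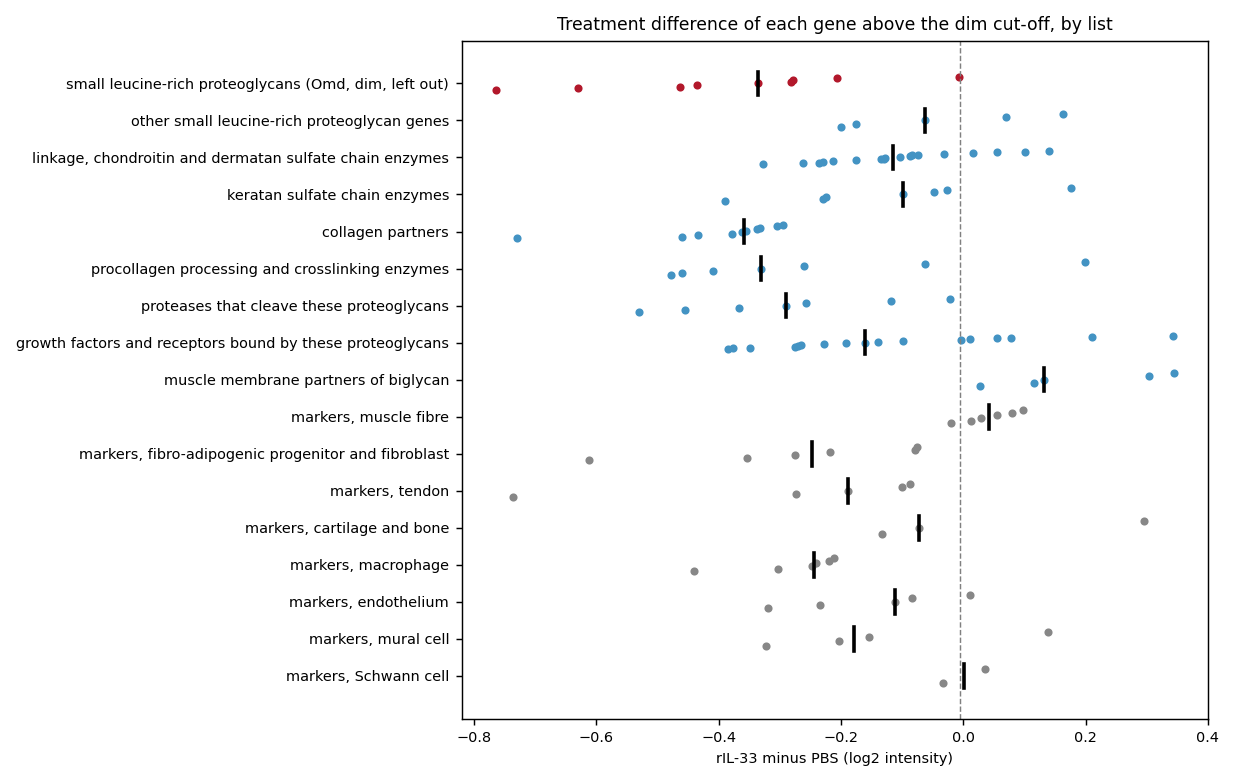
Treatment difference (rIL-33 minus PBS, log2 intensity) of each gene above the dim cut-off, a point per gene, with the 9 proteoglycan genes in red, related gene lists in blue and cell type markers in grey; black bars are list medians and the dashed line is the median of all 14814 genes, -0.01. The proteoglycan genes (median -0.34) and the collagen partners (-0.36) lie farthest left, and the membrane partners of biglycan (0.13) farthest right.

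Several cell types were followed through marker lists. All 6 fibro-adipogenic progenitor and fibroblast markers with a value, of 8 listed, had a lower mean with rIL-33 (median -0.25), with Dpt at -0.61 (SE 0.15) and Pdgfra at -0.35 (SE 0.11). The log2 of their summed intensity was 12.55 to 12.78 on the rIL-33 arrays and 12.85 to 13.13 on the PBS arrays, without overlap. That sum is weighted toward the brightest probe sets, those of Cd34 and Dpt, which were also the only separated genes of the list. In Pdgfra, Clec3b, Pi16 and Dpp4 the groups overlapped. All 5 tendon markers had a lower mean (median -0.19), tenomodulin (Tnmd) at -0.74 (SE 0.17) and the transcription factor gene Scx at -0.27 (SE 0.15), with sums of 11.85 to 12.33 with rIL-33 and 12.09 to 12.56 with PBS. All 6 macrophage markers had a lower mean (median -0.24), Adgre1 at -0.44 (SE 0.15) and Cd68 at -0.30 (SE 0.15), with sums of 13.24 to 13.69 with rIL-33 and 13.62 to 13.88 with PBS. Their part in the levels of the proteoglycan genes was not tested.

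The other cell types had list medians nearer to 0, although that of the mural cell markers (-0.18) was close to that of the tendon markers (-0.19). Every rIL-33 array lay below every PBS array in Emcn and in the mural cell gene Rgs5. The same held for Cd34, Dpt and Tnmd of the lists above, for no macrophage marker, and for 2.13% of all genes. The muscle fibre markers had a median difference of 0.04 with 5 of 6 means higher, Myh4 by 0.10 (SE 0.08) and Mb by 0.08 (SE 0.08), and their sums, 16.24 to 16.34 with rIL-33 and 16.19 to 16.32 with PBS, overlapped. Endothelial markers had a median of -0.11 with 4 of 5 lower (Emcn -0.32, SE 0.08; Cdh5 -0.23, SE 0.10) and sums of 12.40 to 12.66 with rIL-33 and 12.64 to 12.78 with PBS. Mural cell markers had a median of -0.18 with 3 of 4 lower (Acta2 -0.32, SE 0.14; Cspg4 -0.20, SE 0.12) and sums of 12.54 to 12.98 with rIL-33 and 12.92 to 13.13 with PBS. Of the cartilage and bone markers 3 of 7 lay above the cut-off, Alpl at 0.30 (SE 0.11), Col2a1 at -0.13 (SE 0.11) and Sox9 at -0.07 (SE 0.08), while Acan and Ibsp were dim, with sums of 10.31 to 10.44 with rIL-33 and 10.21 to 10.39 with PBS. The 2 Schwann cell markers measured, S100b and Sox10, differed by -0.03 (SE 0.09) and 0.04 (SE 0.09), with sums of 8.33 to 8.56 with rIL-33 and 8.34 to 8.53 with PBS. No marker in any of these lists passed the limma threshold.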

How the data were processed

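Affymetrix Mouse Gene 1.0 ST arrays were used, 1 per sample. The authors deposited a linear intensity for each of 24922 probe sets. The submitters' processing notes name RMA and Affymetrix Power Tools; the sources used here give no version, build or annotation. RMA equalises the arrays and compresses the differences of dim probe sets. Log2 was taken, and per gene the probe set of highest mean over the 8 arrays among the 21425 with 1 symbol was kept; 1399 with several symbols and 2098 unnamed were left out. The 4938 genes under the 25th percentile of the mean were left out as dim. Fits used lmFit and eBayes of limma 3.58.1 (R 4.3.3), with Benjamini-Hochberg adjustment over 14814 genes, for treatment, background label (with treatment) and their interaction, and were tested on simulated data. SE is that of the limma fit. A count at an unadjusted p covers limma only.

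The genes and lists were chosen with earlier results of these data known. Genes named were the 10 proteoglycan genes, in each list those past the threshold or else the 2 of largest difference, and the 5 nearest profiles; separated genes, Chad, Chadl, Optc, Epyc and Sox9 were named after their values were seen. Symbols were updated through RefSeq synonyms (GRCm38.p6). Intervals are 95% intervals of the limma fit. Alternatives were a second quantile normalization, other dim filters, eBayes with trend and robust, the mean of probe sets, blocks, each label or treatment alone and each array left out. Arrays give no read depth, and their number limits the precision. Python 3.11.15 and matplotlib 3.10.9 drew the figures.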

Additional observations from a re-analysis of the deposited data

Results flagged for a closer look

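Ogn stood at 10.26 on rIL-33 replicate 3, while the other 3 rIL-33 arrays lay between 10.82 and 10.91; the gap to the nearest array was 0.867 of the range of the group. It was the only array to stand apart in this way among the 20 groups screened (10 genes in both treatments), and chance gives about 1 in 20.

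Fmod moved in opposite directions under the background labels: rIL-33 minus PBS was -0.07 within the WT-labelled arrays, both below both PBS arrays, and 0.05 within the C57BL/6-labelled arrays, both above both PBS arrays. The difference between the labels was -0.12 (SE 0.12), and the limma interaction did not pass the threshold (adjusted p = 0.999). Fmod was the only gene flagged in this way among the 10 screened, on 2 arrays against 2 in each label. The share of all genes with such a pattern was not counted, so nothing is read from it.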

How the results depend on the processing

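Under the alternatives run, all 153 treatment differences of the 9 proteoglycan genes moved by less than the SD between replicates. Many of these could not move: the dim filters and eBayes with trend and robust leave a difference as it is. The mean of probe sets does too, with 1 probe set per gene, as do the blocks, which are balanced. Only quantile normalization, each label alone and the left-out arrays could change a difference. Leaving out 1 of 4 arrays cannot move it by as much as that SD. Only quantile normalization and each label alone could therefore have exceeded it. The differences stayed below 0 except for Fmod. It was 0.01 without rIL-33 replicate 1 and without PBS replicate 3, 0.03 without PBS replicate 4 and 0.05 within the C57BL/6-labelled arrays. The count of separated genes was 5 to 7 when 1 array was left out, 7 without PBS replicate 2 and 5 otherwise. Label and interaction tests of the 9 genes passed the threshold in 0 of 252 repeats. Over all genes, the treatment calls (1) numbered 0 with the replicate block (2327 genes at an unadjusted p under 0.05, beside 1427), 4 within the WT-labelled and 2 within the C57BL/6-labelled arrays, and 1 to 2 with 1 array left out; the replicate block changed none of the differences of the 9 genes, while the SE of Lum was 0.08 with it, beside 0.15. The labels give no pairing by replicate number, so the numbers were not taken as pairs. Deviations of same-numbered arrays from their treatment means correlated across genes at 0.44, -0.19, 0.43 and 0.54 for numbers 1 to 4. With the other number of the same label the values were 0.63, 0.31, 0.12 and 0.22. Numbers 3 and 4 thus correlated best with their own, while 1 and 2 did not. The label was not removed from these deviations, so they do not decide whether the numbers are pairs. The genes at an unadjusted p under 0.05 numbered 638 without rIL-33 replicate 1, 825 without rIL-33 replicate 3 and 791 without PBS replicate 4. The label calls (1392) numbered 375 after quantile normalization, 892 with the dim filter at the 50th percentile, where fewer genes were tested, 0 within rIL-33 arrays, 35 within PBS arrays, and 10 to 2509 with 1 array left out. Interaction calls (0) numbered 0 to 8 with 1 array left out (8 without rIL-33 replicate 4, 5 without PBS replicate 3, 1 without rIL-33 replicate 3 or PBS replicate 1). Apart from the smaller number of genes or arrays, the cause was not tested. Signal close to background limits Omd, and 4 arrays per group limit all differences.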

Other observations

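2 other genes of the proteoglycan family differed between the background labels. Ecm2, a leucine-rich matrix protein gene, averaged 9.00 on the WT-labelled and 9.45 on the C57BL/6-labelled arrays, a difference of -0.45 (SE 0.09, limma adjusted p = 0.0260). It stood at 8.70, 9.13, 9.07 and 9.10 on the 4 WT-labelled arrays, against 9.35, 9.32, 9.59 and 9.53 on the 4 C57BL/6-labelled ones, without overlap. Chadl, a chondroadherin-like gene near the dim cut-off, averaged 6.86 on the WT-labelled and 6.52 on the C57BL/6-labelled arrays, a difference of 0.34 (SE 0.07, limma adjusted p = 0.0281). Among all genes tested 9.4% were called in this contrast. Both kept their direction in all alternatives run but passed the threshold in 7 of 15 for Ecm2 (adjusted p between 0.0225 and 0.524) and in 5 of 14 for Chadl (adjusted p between 0.0271 and 0.524), and after quantile normalization neither passed, at -0.35 and 0.19. Ecm2 lies next to Aspn in the genome, and Aspn differed between the labels by -0.09 with a 95% interval of -0.61 to 0.43.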
